A study of Homo sapiens with 12 samples.

Results

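The genes described here are 10 components of the switch that takes a cell out of G1 phase: the D-type cyclins CCND2 and CCND3, the E-type cyclins CCNE1 and CCNE2, the kinase CDK4, the CDK inhibitors CDKN2C, CDKN2D and CDKN1B, the phosphatase CDC25A and the retinoblastoma protein gene RB1. They were chosen by symbol, with earlier results of these data known, and are 10 of the 20036 genes in the deposited table. Their levels were measured by RNA sequencing in MV-4-11, an established human acute myeloid leukaemia line that carries a KMT2A fusion and an internal tandem duplication of the receptor kinase FLT3. The labels give the line as wild type and name 4 groups of 3 libraries. Combination cells received HPA-12 and crenolanib together, crenolanib cells received crenolanib alone, HPA-12 cells received (1R,3S)-HPA-12 alone, and DMSO cells received the solvent. Crenolanib inhibits FLT3 and related receptor kinases, and HPA-12 inhibits CERT, the protein that carries ceramide to the Golgi. The series text gives 48 h for the treated groups, with no time for DMSO and no doses. Nothing in the labels ties the 3 libraries of a group to cultures of their own, so the p-values reflect spread among libraries that may be purely technical.

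In G1, D-type cyclins activate CDK4 and CDK6, and E-type cyclins then activate CDK2. Both kinase activities phosphorylate RB1, which otherwise holds E2F transcription factors inactive, and CDC25A removes the inhibitory phosphates from CDK2. INK4 inhibitors such as CDKN2C (p18) and CDKN2D (p19) bind CDK4 and CDK6, while CIP/KIP inhibitors such as CDKN1B (p27) bind cyclin E with CDK2. In FLT3-mutant leukaemia cells, FLT3 signalling is known to sustain D-type cyclins and to hold CDKN1B down.

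Promoters from RefSeq (build GRCh38.p14, 250 bases before to 50 after the start) were found for 8 of the 10 genes, with 12 promoters in all and no entry for CCND2 or CCNE2. Promoters of 3 genes are shown: CDK4 and CDC25A, which fell with both single agents, and CDKN2D, which rose with both. They are CDK4 at chr12:57752261-57752560, CDC25A at chr3:48188368-48188667 and CDKN2D at chr19:10568930-10569229, all on the minus strand. Capitals mark the E-box letters CACGTG in CDK4 and the E2F-type letters TTTGGCGC in CDC25A. Both strands were searched, E2F-type letters were TTTCCCGC, TTTGGCGC, TTTCGCGC and TTTGCCGC, forkhead letters were GTAAACA, and the motifs were chosen after the levels had been seen.
CDK4: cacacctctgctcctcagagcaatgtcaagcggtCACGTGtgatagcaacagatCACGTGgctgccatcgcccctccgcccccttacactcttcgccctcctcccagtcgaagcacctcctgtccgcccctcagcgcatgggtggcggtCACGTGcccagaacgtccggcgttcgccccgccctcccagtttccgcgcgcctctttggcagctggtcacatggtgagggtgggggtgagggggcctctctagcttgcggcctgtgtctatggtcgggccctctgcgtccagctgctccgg
CDC25A: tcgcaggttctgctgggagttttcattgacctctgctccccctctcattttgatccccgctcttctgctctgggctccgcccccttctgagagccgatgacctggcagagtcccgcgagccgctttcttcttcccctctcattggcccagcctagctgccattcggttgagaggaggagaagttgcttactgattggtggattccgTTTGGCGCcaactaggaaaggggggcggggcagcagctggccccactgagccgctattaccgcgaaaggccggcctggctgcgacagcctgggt
CDKN2D: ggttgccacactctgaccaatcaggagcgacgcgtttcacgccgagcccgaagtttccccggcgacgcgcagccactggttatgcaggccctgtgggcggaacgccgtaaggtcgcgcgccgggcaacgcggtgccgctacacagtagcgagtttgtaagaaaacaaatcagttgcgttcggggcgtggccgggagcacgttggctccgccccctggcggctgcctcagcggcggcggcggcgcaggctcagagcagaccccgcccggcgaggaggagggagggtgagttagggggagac
The CDK4 promoter held CACGTG 3 times, at 216, 196 and 101 bases upstream of the start. Of 35116 RefSeq promoters of this length, 7.26% held CACGTG at least once and 0.094% held it 3 times or more. Among the 10 genes, CACGTG was also in 2 of the 3 CDKN2C promoters. The CDC25A promoter held TTTGGCGC 44 bases upstream, and 3.31% of all promoters held 1 of the E2F-type letters searched. GTAAACA was in 1 CCND3 promoter, against 3.42% of all promoters. The CDKN2D promoter held none of these letters in this window. The only RB1 entry was at chr13:48476200-48476499, and no other RB1 start was searched.

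Values are FPKM, fragments scaled by gene length and library size. Estimated depth was 4400000 to 5070000 reads in combination libraries, 10060000 to 10210000 in crenolanib, 12050000 to 12790000 in HPA-12 and 13580000 to 15980000 in DMSO libraries. Transcripts of 13 mitochondrial genes took 61.6 to 62.6% of all FPKM in combination libraries, 35.9 to 36.2% in crenolanib, 21.1 to 22.1% in HPA-12 and 19.6 to 20.0% in DMSO libraries. All 10 myeloid markers checked averaged at least 1 FPKM in every group, and their summed level was 743 to 794 FPKM in combination libraries, 1129 to 1148 in crenolanib, 752 to 764 in HPA-12 and 1317 to 1328 in DMSO libraries. Of these, MPO, the granule enzyme myeloperoxidase, averaged 429 FPKM in combination, 344 in crenolanib, 15.9 in HPA-12 and 391 in DMSO libraries. The other myeloid markers did not all move with MPO. In the combination FLT3, CD33, SPI1 (57.3 against 235 FPKM), CEBPA, LYZ, CSF1R, HOXA9 and MEIS1 averaged below DMSO and PTPRC above it. With HPA-12, CD33, CEBPA and LYZ (86.9 against 399 FPKM) averaged below DMSO. FLT3, SPI1, PTPRC, CSF1R (73.9 against 34.7 FPKM), HOXA9 and MEIS1 averaged above DMSO with HPA-12. The summed level of 11 erythroid markers was 26989 to 27377 FPKM in combination libraries, 4305 to 4579 in crenolanib, 211 to 217 in HPA-12 and 75.1 to 82.8 in DMSO libraries. Of these 11, all averaged at least 1 FPKM in the combination and with crenolanib, 7 with HPA-12, where HBA2 is listed at 0 in all 3 libraries, and 3 in DMSO. Summed levels of 6 lymphoid markers were at most 8.08 FPKM in any library. Those of 6 stromal and epithelial markers were 8.61 to 18.2 FPKM in combination libraries, 24.6 to 28.8 in crenolanib, 58.6 to 61.8 in HPA-12 and 13.5 to 14.8 in DMSO libraries, with EPCAM listed at 0 in the combination, crenolanib and DMSO groups, COL1A2 at 0 in HPA-12 and DCN at 0 in DMSO. PECAM1, which myeloid cells also make, averaged 6.34 FPKM in combination, 25.5 in crenolanib, 59.1 in HPA-12 and 12.2 in DMSO libraries and made up most of that sum in the single-agent and DMSO groups. Of the 6 stromal and epithelial markers, 4 averaged at least 1 FPKM in the combination and 2 in each other group. Single combination libraries reached 6.81 FPKM for COL1A1, 3.36 for COL1A2 and 3.47 for KRT18, while each of these genes was at 0 in another. The part of depth, mitochondrial share and these marker transcripts in the differences below was not tested, and in bulk RNA fewer cells of a type cannot be told apart from less RNA per cell.

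**Figure D1:**
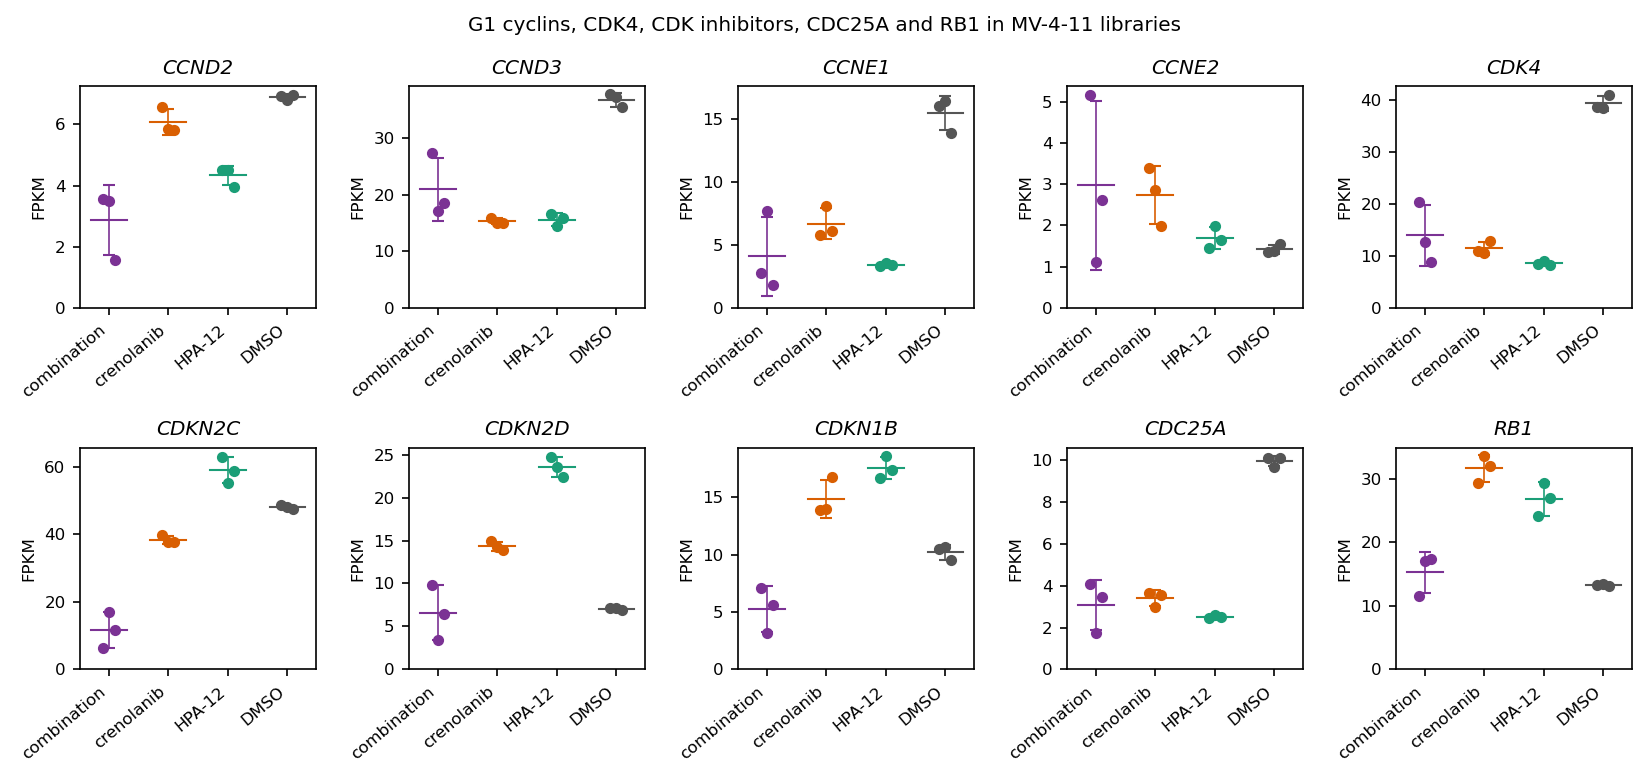
FPKM of each of the 10 genes (vertical axes, linear, from 0) in the 4 groups; points are libraries, thick bars are means and thin bars are SD (n = 3 each). CCND3, CCNE1, CDK4 and CDC25A are highest in all 3 DMSO libraries, CDKN2D in HPA-12 libraries, and RB1 is highest on average in crenolanib libraries; combination libraries scatter most.

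All 10 genes reached the minimum for testing. Against DMSO, each single agent lowered transcripts of the cyclin and kinase side (CCND3, CCNE1, CDK4 and CDC25A) and raised the inhibitors CDKN2D and CDKN1B together with RB1. HPA-12 also lowered CCND2. The crenolanib call of CDKN1B (limma adjusted p = 0.0477) and the HPA-12 call of CCND2 (0.0288) were lost in several alternative runs, given below. In the combination, 7 of the 10 genes fell and 0 rose, beside 71.3% of all 11149 tested genes called, 14.8% higher and 56.5% lower, so a share of 7 in 10 lies near the background. That split changed with scaling: 2 rose and 5 fell with median-ratio scaling, 3 rose and 3 fell with mitochondrial genes left out, and 0 rose and 9 fell with total-sum scaling. As deposited, the CDK inhibitors CDKN2C and CDKN1B were among those that fell. With crenolanib, 3 rose and 4 fell, beside 56.3% of all genes called, 27.4% higher and 28.9% lower. Under median-ratio scaling 2 rose and 4 fell with crenolanib, as CDKN1B no longer passed. With HPA-12, 3 rose and 5 fell, beside 50.7% called, 27.7% higher and 23.0% lower. Counted by libraries that did not overlap with DMSO, 0 genes were above and 7 below in the combination (71.4% of all genes did not overlap), 4 above and 6 below with crenolanib (77.8%), and 4 above and 5 below with HPA-12 (79.5%). With so large a share of all genes separated, these counts are a description of the 10 genes only. The median log2 fold change of the 10 genes was -0.99 in the combination, -0.24 with crenolanib and -0.21 with HPA-12, and that of all tested genes was -0.62, -0.039 and 0.090 in the same order. The 3 comparisons share the same 3 DMSO libraries, and their values are given side by side below.

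**Figure D2:**
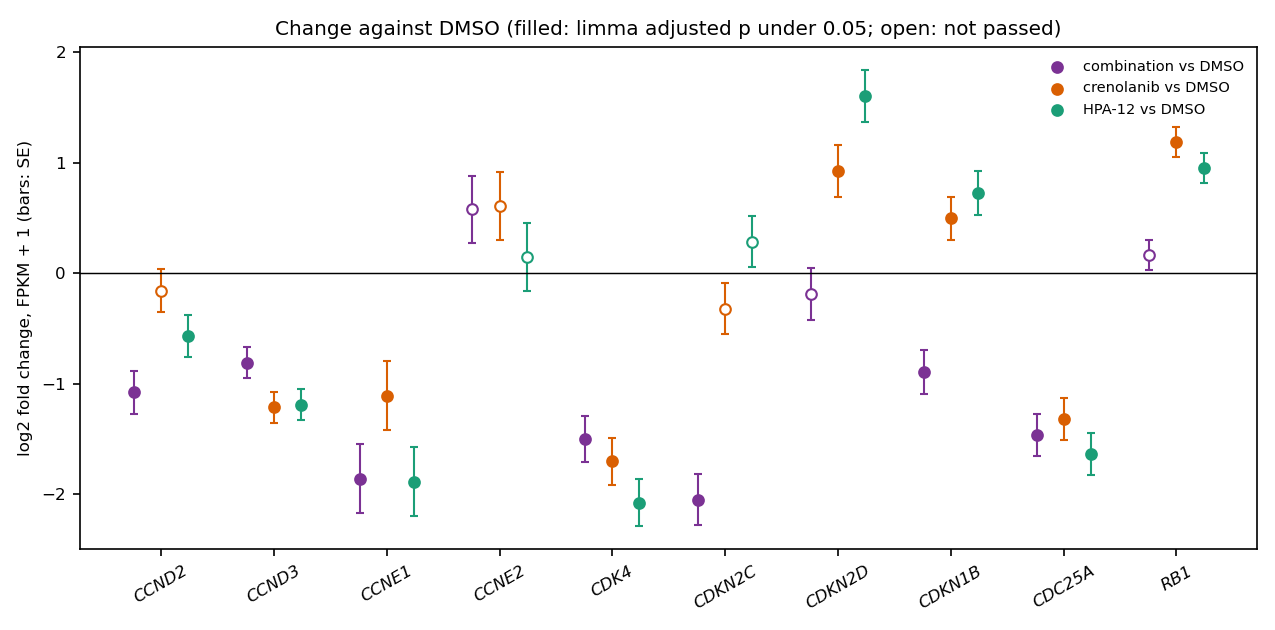
Log2 fold change against DMSO on the log2(FPKM + 1) scale for each gene, with bars of 1 SE from limma; filled points passed an adjusted p of 0.05. CDK4 lies at -1.50 in the combination, -1.70 with crenolanib and -2.08 with HPA-12, and CDKN2C at -2.05 in the combination while neither single agent passed.

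CCND3 (ENSG00000112576), the more abundant of the D-type cyclins measured here, had 27.3, 17.0 and 18.6 FPKM in combination libraries and 16.0, 15.0 and 15.0 FPKM in crenolanib libraries. It had 16.6, 14.4 and 15.9 FPKM in HPA-12 libraries, against 37.7, 37.3 and 35.4 FPKM in DMSO libraries. All 9 treated libraries were below all 3 DMSO libraries. CCND3 fell by 0.81 ± 0.14 (SE) on the log2 scale in the combination (limma adjusted p = 0.000262), by 1.21 ± 0.14 with crenolanib (2.24e-05) and by 1.19 ± 0.14 with HPA-12 (2.86e-05). CCND2 (ENSG00000118971), its paralogue, had 3.56, 3.51 and 1.55 FPKM in combination libraries, 6.58, 5.85 and 5.82 in crenolanib, 4.52, 4.52 and 3.97 in HPA-12 and 6.95, 6.80 and 6.95 in DMSO libraries. Every treated group lay below DMSO, with crenolanib the closest to it. CCND2 fell by 1.08 ± 0.19 in the combination (limma adjusted p = 0.000347) and by 0.57 ± 0.19 with HPA-12 (0.0288). The HPA-12 call was lost when any 1 of the 6 HPA-12 and DMSO libraries was left out (0.0572 to 0.092). A pseudocount of 0.1 (0.0593) and leaving mitochondrial genes out of the total (0.07) also lost it. With crenolanib the log2 fold change of CCND2 was -0.16 ± 0.19 (limma adjusted p = 0.504).

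CCNE1 (ENSG00000105173), the E-type cyclin that predominated in DMSO cells, had 2.77, 7.69 and 1.85 FPKM in combination libraries, 5.81, 8.12 and 6.14 in crenolanib, 3.37, 3.57 and 3.40 in HPA-12 and 16.1, 16.5 and 13.9 in DMSO libraries. All treated libraries were below DMSO, and combination library 2 stood above the other combination libraries. CCNE1 fell by 1.86 ± 0.31 in the combination (limma adjusted p = 0.000205), by 1.11 ± 0.31 with crenolanib (0.00992) and with HPA-12 it fell by 1.89 ± 0.31 (0.00036). The crenolanib call was lost once mitochondrial genes were removed from the library total (log2 fold change -0.84, adjusted p = 0.0759). CCNE2 (ENSG00000175305), the second E-type cyclin, had 5.17, 1.12 and 2.62 FPKM in combination libraries, 3.39, 2.85 and 1.99 in crenolanib, 1.45, 1.98 and 1.65 in HPA-12 and 1.35, 1.37 and 1.55 in DMSO libraries. Crenolanib libraries were all above DMSO libraries, and the combination and HPA-12 groups overlapped with DMSO. No comparison of CCNE2 against DMSO passed, with log2 fold changes of 0.58 ± 0.30 in the combination (limma adjusted p = 0.108), 0.61 ± 0.30 with crenolanib (0.108) and 0.15 ± 0.30 with HPA-12 (0.715). Fitting only the crenolanib and DMSO libraries gave CCNE2 an adjusted p of 0.0035. Leaving out combination library 2 gave it a log2 fold change of 0.96 in the combination (adjusted p = 0.0025). INTS8 lies on the opposite strand over 37.0% of the exon bases of CCNE2 in GENCODE 29, and reads of the pair cannot be told apart if the counting ignored strand.

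CDK4 (ENSG00000135446), the kinase partner of the D-type cyclins, had 20.4, 12.7 and 8.92 FPKM in combination libraries, 10.9, 10.5 and 13.0 in crenolanib, 8.45, 9.01 and 8.29 in HPA-12 and 38.7, 38.4 and 41.1 in DMSO libraries. No treated library reached the DMSO range. CDK4 fell by 1.50 ± 0.21 in the combination (limma adjusted p = 4.84e-05), by 1.70 ± 0.21 with crenolanib (3.7e-05) and by 2.08 ± 0.21 with HPA-12 (8.42e-06). With HPA-12 this was the largest log2 fold change among the 10 genes. TSPAN31 lies on the opposite strand over 43.2% of the exon bases of CDK4, and reads of this pair, too, cannot be told apart if the counting ignored strand. TSPAN31 had 1.30 to 1.88 FPKM in combination libraries, 5.09 to 5.84 in crenolanib, 7.78 to 8.25 in HPA-12 and 5.32 to 6.09 in DMSO libraries.

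CDKN2C (ENSG00000123080), the p18 INK4 inhibitor, was the most abundant of the 10 genes in crenolanib, HPA-12 and DMSO libraries. It had 6.33, 16.9 and 11.7 FPKM in combination libraries, 39.8, 37.6 and 37.6 in crenolanib, 62.9, 55.3 and 58.8 in HPA-12 and 48.8, 48.0 and 47.6 in DMSO libraries. The 4 groups did not overlap, with HPA-12 highest and the combination lowest. CDKN2C fell by 2.05 ± 0.23 in the combination (limma adjusted p = 7.88e-06), the largest change there among the 10 genes. With crenolanib its log2 fold change was -0.32 ± 0.23 (0.258) and with HPA-12 0.29 ± 0.23 (0.33), neither of which passed. Fits of only the compared groups gave CDKN2C an adjusted p of 0.000165 for crenolanib and 0.000334 for HPA-12.

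CDKN2D (ENSG00000129355), the p19 INK4 inhibitor, had 9.82, 3.41 and 6.50 FPKM in combination libraries, 14.9, 14.2 and 13.9 in crenolanib, 24.7, 23.6 and 22.4 in HPA-12 and 7.19, 7.10 and 6.94 in DMSO libraries. Single-agent libraries were all above DMSO, and combination libraries lay on both sides of it. CDKN2D rose by 0.93 ± 0.24 with crenolanib (limma adjusted p = 0.00577) and by 1.60 ± 0.24 with HPA-12 (0.000158). In the combination its log2 fold change was -0.19 ± 0.24 (0.495). CDKN1B (ENSG00000111276), the p27 CIP/KIP inhibitor, had 7.07, 3.13 and 5.59 FPKM in combination libraries, 13.9, 14.0 and 16.8 in crenolanib, 16.7, 18.6 and 17.4 in HPA-12 and 10.5, 10.7 and 9.49 in DMSO libraries. All combination libraries were below DMSO and all single-agent libraries above it. CDKN1B fell by 0.89 ± 0.20 in the combination (limma adjusted p = 0.00146), while it rose by 0.50 ± 0.20 with crenolanib (0.0477) and by 0.73 ± 0.20 with HPA-12 (0.00887). The crenolanib call was lost when any 1 of the 6 crenolanib and DMSO libraries was left out (0.0725 to 0.151). It was also lost with a pseudocount of 0.1 (0.078), without a filter (0.0777), with median-ratio (0.0581), upper-quartile (0.0585) and total-sum scaling (0.141), with the replicate block (0.0583) and with plain moderation (0.0532), while a fit of only these 6 libraries kept it (0.000624).

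CDC25A (ENSG00000164045), the phosphatase that activates CDK2, had 4.06, 1.76 and 3.46 FPKM in combination libraries, 3.67, 3.00 and 3.58 in crenolanib, 2.45, 2.62 and 2.51 in HPA-12 and 10.1, 9.69 and 10.1 in DMSO libraries. All 9 treated libraries were below DMSO. CDC25A fell by 1.47 ± 0.19 in the combination (limma adjusted p = 2.56e-05), by 1.31 ± 0.19 with crenolanib (0.000126) and by 1.64 ± 0.19 with HPA-12 (2.56e-05). RB1 (ENSG00000139687), the E2F-binding pocket protein, had 11.5, 17.0 and 17.3 FPKM in combination libraries, 29.3, 33.6 and 31.9 in crenolanib, 24.1, 29.3 and 26.9 in HPA-12 and 13.3, 13.4 and 13.1 in DMSO libraries. Single-agent libraries were all above DMSO, and combination libraries overlapped with it. RB1 rose by 1.19 ± 0.14 with crenolanib (limma adjusted p = 2.21e-05) and by 0.95 ± 0.14 with HPA-12 (0.00013). Its log2 fold change in the combination was 0.17 ± 0.14 (0.297).

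In DMSO cells the order by mean level per length was CDKN2C at 48.1 FPKM, CDK4 at 39.4, CCND3 at 36.8, CCNE1 at 15.5, RB1 at 13.3, CDKN1B at 10.2, CDC25A at 9.95, CDKN2D at 7.08, CCND2 at 6.90 and CCNE2 at 1.43. Libraries of neighbours in that order overlapped for CDKN1B with CDC25A and for CDKN2D with CCND2. With HPA-12 the order began with CDKN2C at 59.0 FPKM, RB1 at 26.8 and CDKN2D at 23.6, and CDK4 averaged 8.58 FPKM. With crenolanib it began with CDKN2C at 38.3 FPKM and RB1 at 31.6, and CDKN1B, at 13.9 to 16.8 FPKM, overlapped with CCND3 and with CDKN2D. In the combination CCND3 came first at 21.0 FPKM, and its libraries overlapped with those of RB1 and CDK4.

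Levels in the combination depended on how libraries were scaled. The FPKM sum over all genes was 493280 to 500570 in combination libraries, 294980 to 296690 in crenolanib, 241910 to 247470 in HPA-12 and 254620 to 260320 in DMSO libraries. Against DMSO, CCNE1, CDC25A and CDKN2C fell under all 5 scalings, as deposited, median-ratio, upper-quartile, without mitochondrial genes in the total, and total-sum, the last of which was added after the sums were seen. CDKN2C fell by 2.05 as deposited, 1.39 with median-ratio scaling, 1.04 with mitochondrial genes left out and 2.92 with total-sum scaling. RB1 moved across 0: its log2 fold change was 0.17 as deposited and did not pass, while it rose by 0.82 with median-ratio scaling and by 1.21 with mitochondrial genes left out, and fell by 0.71 with total-sum scaling. CDKN1B, which fell by 0.89 as deposited, had a log2 fold change of -0.29 with median-ratio scaling and 0.054 with mitochondrial genes left out, and neither passed. CCND3, which fell by 0.81 as deposited, had -0.14 and 0.24 under the same settings, and neither passed. CCNE2, which did not pass as deposited, rose by 1.06 with median-ratio scaling and by 1.48 with mitochondrial genes left out. CDKN2D rose by 0.79 with mitochondrial genes left out and fell by 0.98 with total-sum scaling. CDK4 fell by 0.84 with median-ratio scaling and CCND2 by 0.53, and neither passed with mitochondrial genes left out (-0.48 for CDK4, -0.23 for CCND2). The median of all tested genes in the combination against DMSO was -0.62 as deposited, -0.12 with median-ratio scaling, 0.18 with mitochondrial genes left out and -1.27 with total-sum scaling. Relative to the deposited median, CDKN2C differed by -1.43, CCNE1 by -1.23, CDK4 by -0.88, CDC25A by -0.84, RB1 by 0.79 and CCNE2 by 1.20.

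**Figure D3:**
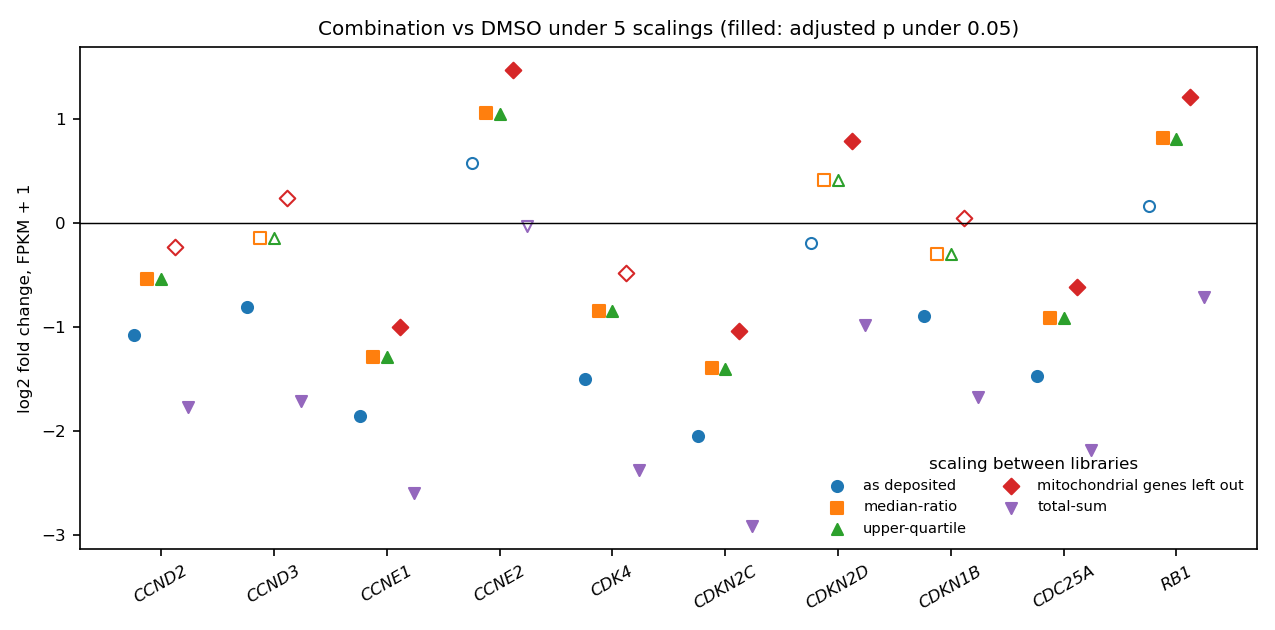
Log2 fold change of combination over DMSO on the log2(FPKM + 1) scale under 5 scalings between libraries; filled symbols passed an adjusted p of 0.05. CDKN2C, CCNE1 and CDC25A stay below 0 and filled under all 5, while RB1 runs between -0.71 and 1.21.

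Of the 7 CDK inhibitor genes, CDKN2C, CDKN1B and CDKN2D were lower and CDKN1A and CDKN1C higher in the combination than with crenolanib alone, and CDKN2A and CDKN2B did not pass. In the combination against crenolanib, CDKN2C fell by 1.73 ± 0.23 (limma adjusted p = 4.76e-05), CDKN1B by 1.39 ± 0.20 (6.83e-05) and CDKN2D by 1.11 ± 0.24 (0.00138). RB1 fell by 1.02 ± 0.14 (4.74e-05), CCND2 by 0.92 ± 0.19 (0.0013) and CCNE1 by 0.75 ± 0.31 (0.0493), and CCND3 rose by 0.40 ± 0.14 (0.0232). CDKN1C rose by 1.28 ± 0.08 (1.84e-07) and CDKN1A by 0.49 ± 0.10 (0.000816), though CDKN1A had -0.24 with total-sum scaling. Among the 10 genes that made 1 that rose and 6 that fell, beside 70.0% of all tested genes called, 8.78% higher and 61.2% lower, and a median over all of them of -0.63. Combination libraries were wholly above crenolanib libraries for 1 of the 10 genes and wholly below for 5, where 64.9% of all genes did not overlap. CDK4 (0.20 ± 0.21), CDC25A (-0.15 ± 0.19) and CCNE2 (-0.03 ± 0.30) did not pass. CDK4 did pass under the other scalings: it rose by 0.84 with median-ratio scaling (adjusted p = 0.00743) and by 0.94 with mitochondrial genes left out (0.00463), and fell by 0.48 with total-sum scaling (0.0414). CDKN2C and CDKN1B kept their calls under each alternative run. A fit of only these 6 libraries left 5 calls, without CCND3 (adjusted p = 0.095) and CCNE1 (0.146), and with median-ratio scaling the calls of CDKN2D (log2 fold change -0.51), CCND2 (-0.39) and CCNE1 (-0.20) were lost. With mitochondrial genes left out these 3 and RB1 (-0.31, adjusted p = 0.115) did not pass, CCND2 having -0.36, CCNE1 -0.16 and CDKN2D -0.46. The rise of CCND3 became -0.30 with total-sum scaling.

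The same 3 inhibitors were lower in the combination than with HPA-12 alone, whereas CDKN1C, CDKN1A and CDKN2B were higher and CDKN2A did not pass. In the combination against HPA-12, CDKN2C fell by 2.33 ± 0.23 (limma adjusted p = 2.59e-06), CDKN2D by 1.79 ± 0.24 (2.97e-05) and CDKN1B by 1.62 ± 0.20 (1.39e-05). RB1 fell by 0.79 ± 0.14 (0.000264) and CCND2 by 0.51 ± 0.19 (0.0326), while CDK4 rose by 0.58 ± 0.21 (0.0274) and CCND3 by 0.38 ± 0.14 (0.0296). CDKN1C rose by 3.09 ± 0.08 (4.42e-11), CDKN1A by 1.68 ± 0.10 (2.46e-08) and CDKN2B by 1.31 ± 0.21 (0.000167). Among the 10 genes, the 2 that rose and 5 that fell stood beside 72.3% of all tested genes called, 14.5% higher and 57.8% lower, and a median over all of them of -0.64. Combination libraries were wholly above HPA-12 libraries for 1 gene and wholly below for 5, where 70.7% of all genes did not overlap. A fit of only these 6 libraries left 4 calls, without CDK4 (adjusted p = 0.101), CCND3 (0.114) and CCND2 (0.127). With total-sum scaling CDK4 had a log2 fold change of -0.35 and CCND3 of -0.59, and with mitochondrial genes left out RB1 had 0.22 and CCND2 0.33. RB1 (-0.10) and CCND2 (0.046) did not pass with median-ratio scaling either, where 4 of the 10 genes rose and 3 fell. CDKN2C, CDKN2D and CDKN1B kept their calls under each alternative run.

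Crenolanib and HPA-12 differed less from each other. In crenolanib against HPA-12, 0 of the 10 genes rose and only CDKN2D fell, by 0.68 ± 0.24 (limma adjusted p = 0.0388), beside 41.2% of all tested genes called, 19.5% higher and 21.6% lower. CDKN2D averaged 14.4 ± 0.53 FPKM with crenolanib and 23.6 ± 1.2 FPKM with HPA-12 (SD, n = 3 each). The log2 difference of CDKN2C was -0.61 ± 0.23 (0.0549), that of CCNE1 0.78 ± 0.31 (0.0653) and that of CCND2 0.41 ± 0.19 (0.113). Crenolanib libraries were all above HPA-12 libraries for CCND2, CCNE1, CCNE2, CDK4 and CDC25A, and all below for CDKN2C and CDKN2D, where 68.9% of all genes did not overlap. The count of genes called rested on the spread shared by the 4 groups: a fit of only these 6 libraries called 9 genes, 6 higher and 3 lower, and leaving out any 1 of them from the fit over all groups called 0.

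The interaction is the log2 change on adding HPA-12 to crenolanib, less the change with HPA-12 alone against DMSO; 0 means that the single-agent changes add on this scale. It was above 0 for CDK4 (2.28 ± 0.30), CCND3 (1.59 ± 0.20), CDC25A (1.48 ± 0.27) and CCNE1 (1.14 ± 0.44). For these genes each agent alone lowered the level and the combination was not lower by the sum of both changes. It was below 0 for CDKN2D (-2.72 ± 0.33), CDKN1B (-2.12 ± 0.28), CDKN2C (-2.01 ± 0.33) and RB1 (-1.98 ± 0.19). The 8 genes past the limma threshold stood beside 65.4% of all tested genes, 15.4% above 0 and 50.0% below, whose median was -0.65. The CCNE1 call (adjusted p = 0.0391) was lost in several alternative runs, while the 7 other genes kept direction and call under each of them. The interaction takes in all 4 groups, so these runs held no fit of only the compared groups. Its SE and p-values rest on the spread shared by the 4 groups, which made more false calls for the combination on simulated data. CCND2 (-0.35 ± 0.27) and CCNE2 (-0.18 ± 0.43) did not pass.

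Ratios between the genes within a library do not depend on how the library is scaled. They are given as log2 values, without a test. The INK4 sum of CDKN2C and CDKN2D over CDK4 was -0.34, 0.68 and 1.03 in combination libraries, 2.33, 2.30 and 1.99 in crenolanib, 3.37, 3.13 and 3.29 in HPA-12 and 0.53, 0.52 and 0.41 in DMSO libraries. Both single agents lay above DMSO without overlap, and the combination lay on both sides of it. CDKN1B over the sum of CCNE1 and CCNE2 was -0.17, -1.49 and 0.32 in combination libraries, 0.59, 0.35 and 1.05 in crenolanib, 1.79, 1.74 and 1.78 in HPA-12 and -0.74, -0.74 and -0.71 in DMSO libraries. HPA-12 was highest, crenolanib next, and combination library 2 was the only treated library below DMSO. CCND3 over CCND2 was 2.28 to 3.58 in combination libraries, 1.28 to 1.36 in crenolanib, 1.67 to 2.0 in HPA-12 and 2.35 to 2.45 in DMSO libraries. The single agents thus had a smaller excess of CCND3 over CCND2 than DMSO. A pair of ratios was added after the levels had been seen. CDKN2C over CDKN2D was -0.63 to 2.31 in combination libraries, 1.40 to 1.44 in crenolanib, 1.23 to 1.39 in HPA-12 and 2.76 to 2.78 in DMSO libraries, and CCNE2 over CCNE1 was -2.78 to 0.90, -1.63 to -0.78, -1.22 to -0.85 and -3.58 to -3.17 in the same order of groups. In both, the treated libraries lay on the same side of DMSO.

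**Figure D4:**
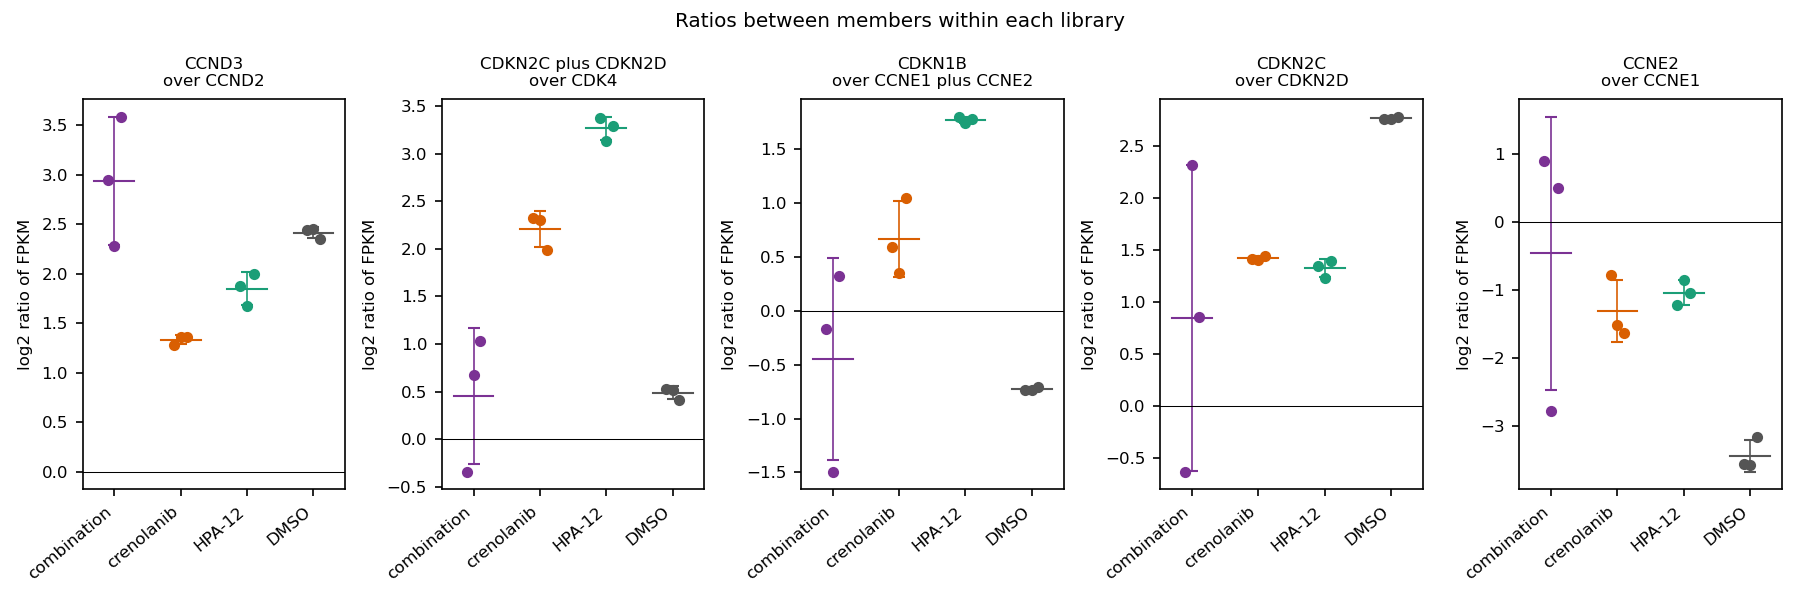
Log2 ratios of FPKM between the genes within each library, in the 4 groups; points are libraries, thick bars are means and thin bars are SD (n = 3 each). CDKN2C plus CDKN2D over CDK4 averages 3.26 in HPA-12, 2.21 in crenolanib, 0.46 in combination and 0.49 in DMSO libraries.

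Among 37 other G1/S genes, 35 were tested. In the combination against DMSO 12 rose and 9 fell, with crenolanib 11 rose and 6 fell, and with HPA-12 8 rose and 6 fell, to be read against the background shares above. The other CIP/KIP inhibitors were the highest-ranked by adjusted p. CDKN1A (p21) had 54.4, 53.8 and 65.7 FPKM in combination libraries, 42.9, 39.6 and 39.7 in crenolanib, 16.8, 17.6 and 17.5 in HPA-12 and 4.47, 4.11 and 3.58 in DMSO libraries. CDKN1C (p57) had 119, 111 and 110 FPKM in combination libraries, 47.8, 48.2 and 42.3 in crenolanib, 12.4, 11.5 and 13.4 in HPA-12 and 5.10, 5.67 and 5.58 in DMSO libraries. Both had the same order of groups without overlap, unlike CDKN1B. CDKN1C rose by 4.15 ± 0.08 in the combination (limma adjusted p = 2.96e-12), 2.87 ± 0.08 with crenolanib (2.05e-10) and 1.06 ± 0.08 with HPA-12 (1.14e-06), and CDKN1A by 3.54 ± 0.10 (4.11e-11), 3.05 ± 0.10 (3.99e-10) and 1.86 ± 0.10 (3.72e-08). CDKN2B (p15) rose by 1.36 ± 0.21 in the combination and by 0.94 ± 0.21 with crenolanib, with 1.53 to 3.47 FPKM in combination, 1.37 to 1.76 in crenolanib, 0.12 to 0.66 in HPA-12 and 0.17 to 0.46 in DMSO libraries. CDKN2A (p16 and ARF) did not pass against DMSO. It had 0.71 to 5.65 FPKM in combination libraries, 4.13 to 5.56 in crenolanib, 5.47 to 6.58 in HPA-12 and 4.49 to 4.94 in DMSO libraries.

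**Figure D5:**
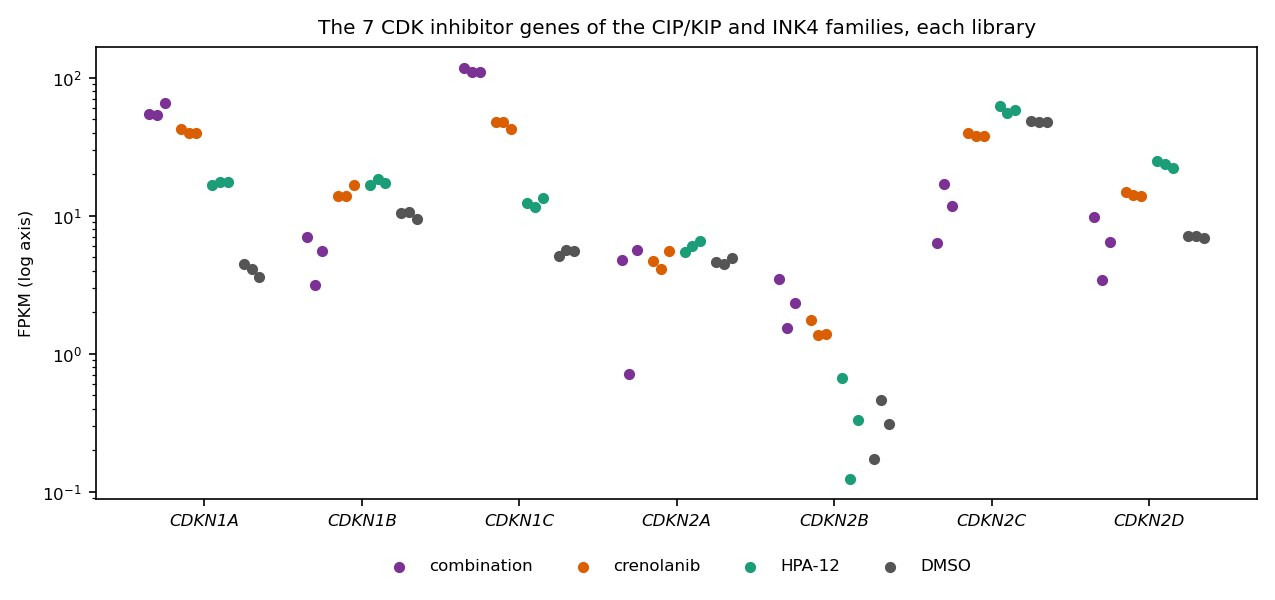
FPKM (log axis) of the 7 CDK inhibitor genes in each library of the 4 groups. CDKN1A and CDKN1C are highest in the combination, whereas CDKN1B and CDKN2C are lowest there.

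Partners of the 10 genes moved in different directions. CDK6, the other kinase of the D-type cyclins, had 12.2 to 15.0 FPKM in combination libraries, 22.3 to 25.0 in crenolanib, 10.1 to 14.3 in HPA-12 and 11.7 to 13.3 in DMSO libraries. It rose with crenolanib by 0.89 ± 0.12 (limma adjusted p = 7.86e-05), while CDK4 fell there. CDK2 did not pass in any comparison and averaged 4.04 FPKM in combination, 3.84 in crenolanib, 4.44 in HPA-12 and 4.45 in DMSO libraries. CCND1, the third D-type cyclin, did not reach the minimum for testing, at 0.53 to 1.46 FPKM in combination, 0.23 to 0.92 in crenolanib, 0.12 to 0.28 in HPA-12 and 0 to 0.05 in DMSO libraries. E2F4, a repressor-type E2F, fell by 0.96 ± 0.07 with crenolanib (2.99e-07) and by 0.71 ± 0.07 with HPA-12 (3.74e-06). TFDP1, the E2F dimerisation partner, fell by 0.43 ± 0.06 with HPA-12 (0.00016) and rose by 0.69 ± 0.06 in the combination against crenolanib (2.43e-06), a rise that became -0.050 with total-sum scaling. E2F2, an activator-type E2F, rose by 1.25 ± 0.15 in the combination against crenolanib (1.68e-05) and by 2.05 ± 0.15 against HPA-12 (1.53e-07). Of 8 ubiquitin ligase parts, 3 rose and 2 fell in the combination against DMSO, beside 71.3% of all tested genes called, 14.8% higher and 56.5% lower. SKP1, an adaptor shared by many SCF ligases, rose by 2.14 ± 0.13 in the combination (3.49e-08) and by 1.39 ± 0.13 with crenolanib (4.07e-06). These rises started from a level under 1 FPKM. SKP1 averaged 5.97 FPKM in combination, 3.13 in crenolanib, 0.50 in HPA-12 and 0.57 in DMSO libraries. SKP2, the subunit that recognises CDKN1B, and CKS1B, another of the 8 parts, were named after their values were seen. SKP2 fell by 1.29 ± 0.16 in the combination (2.08e-05) and by 0.71 ± 0.16 with HPA-12 (0.00356), and kept both calls under the 5 scalings. With crenolanib SKP2 had -0.36 ± 0.16 and did not pass (limma adjusted p = 0.0831). CKS1B rose by 0.51 ± 0.13 in the combination against DMSO (limma adjusted p = 0.00381). RBBP4, a subunit of the MuvB core, fell by 1.40 ± 0.10 in the combination against DMSO (9.69e-08).

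Across the 12 libraries, the tested gene whose level followed each of the 10 most closely was taken from 6222 genes with an adequate mean level. As a description, the likeness (r of log2 levels, n = 12 libraries in 4 groups that share treatments) was 0.99 for CCND3 with DDX39A, for CDC25A with TCOF1, for CDKN2C with VPS35L and for CDKN2D with TMEM86A. It was 0.98 for CDK4 with GAMT, CDKN1B with CCNY, CCNE1 with POLR1B and RB1 with TENT2, 0.96 for CCND2 with CDC123, and lowest for CCNE2, at 0.93 with ATF1.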

How the data were processed

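RNA of MV-4-11 cells was sequenced in 12 libraries, 3 for each of 4 groups. The authors deposited 1 table of FPKM whose header holds a column for each library. How reads were aligned and counted, on which build, annotation and strand setting, is not given in the sources used here. Column names and titles spell the short name of crenolanib differently and were read as 1 compound. All 12 columns were matched by name, and 0 were left over.

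Depth was estimated from the steps of low FPKM values with GENCODE 29 gene lengths; 30.6 to 39.4% of values under 20 estimated reads came out whole within 0.01 read, so depth is approximate and a count test was not used. Within every group, libraries differed by more than counting noise, so none was merged. Log2(FPKM + 1) was fitted with limma 3.58.1 (R 4.3.3, statmod 1.5.0) as 1 factor over all 12 libraries, with trend and robust moderation, for the 11149 genes that reached 1 FPKM in 3 or more libraries. P-values are two-sided and Benjamini-Hochberg adjusted over all tested genes, with a threshold of 0.05. Fold changes on this scale understate changes of low genes. On simulated data with each group's own spread, the shared spread made more false calls for the combination, the noisiest group, than for the single agents, so fits of only the compared groups are given where they change a call. Same-numbered libraries of different groups did not deviate together (0 of 18 pairs over r = 0.1, from -0.03 to 0.07), so numbers were not used as pairs.

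The 10 genes, the G1/S list and the markers were chosen with earlier results of these data known. Named genes are all 10, up to 4 other G1/S genes per comparison with the smallest adjusted p, and the other G1 cyclins, kinases and CDK inhibitors; 1 gene of most similar pattern was named per gene. Alternatives were another pseudocount, other filters, other scalings, a fit of only the compared groups, a replicate block, plain moderation and leaving out each library; total-sum scaling was added later.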

Additional observations from a re-analysis of the deposited data

Results flagged for a closer look

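The effect of HPA-12 differed between crenolanib-treated and solvent-treated cells for 8 of the 10 genes, by the limma interaction test over all 12 libraries, in a table where 65.4% of all tested genes differed in this way and the median over all genes was -0.65. On the log2 scale the difference was 2.28 for CDK4 (adjusted p = 3.88e-05), 1.59 for CCND3 (2.73e-05), 1.48 for CDC25A (0.000483) and 1.14 for CCNE1 (0.0391). It was -2.72 for CDKN2D (2.47e-05), -2.12 for CDKN1B (3.91e-05), -2.01 for CDKN2C (0.000214) and -1.98 for RB1 (4.06e-06). The CCNE1 call was lost with a pseudocount of 0.1 (limma adjusted p = 0.078), without a filter (0.0672) and with total-sum scaling (0.197). Leaving out any 1 HPA-12 or DMSO library also lost it (0.052 to 0.0762), as did leaving out crenolanib library 1 (0.0825) or 3 (0.0767). HPA-12 lowered CDK4 by 2.08 against DMSO, whereas the combination against crenolanib gave 0.20, and HPA-12 raised CDKN2D by 1.60 while CDKN2D fell by 1.11 in the combination against crenolanib. Depth was 4400000 to 5070000 estimated reads and the mitochondrial share of FPKM 61.6 to 62.6% in the combination, and their part in these differences was not tested. With total-sum scaling CDK4 still differed by 1.54 and CDKN2D by -3.43, and with median-ratio scaling by 2.93 and -2.07. All p-values of the interaction use the spread shared by the groups, and no fit of only the compared groups was made for it.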

How the results depend on the processing

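Counts of the 10 genes called stayed within 1.5 times the given value under every alternative for HPA-12, crenolanib and the combination against DMSO and for the interaction, but for the combination against DMSO the split of 0 higher and 7 lower became 2 and 5 with median-ratio scaling and 3 and 3 with mitochondrial genes left out. For crenolanib against HPA-12 the count of 1 became 0 with a pseudocount of 0.1, without a filter, with median-ratio and upper-quartile scaling and on leaving out any 1 library, 2 over genes averaging 5 FPKM or more, 4 with mitochondrial genes left out, 3 with total-sum scaling, 9 in a fit of only the compared groups and 2 with the replicate block. The replicate block left 68 of 70 single-gene results as they were; CCNE1 passed in crenolanib against HPA-12 (0.78, adjusted p = 0.0401) and CDKN1B no longer did against DMSO (0.0583). The count for the combination became 4 against crenolanib with mitochondrial genes left out and 4 against HPA-12 in a fit of only the compared groups.

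A minimum mean of 5 FPKM tests fewer genes and gave 3698 calls over all genes for HPA-12, 4102 for crenolanib and 5197 for the combination against DMSO, 5051 for the combination against crenolanib, 5134 against HPA-12 and 4633 for the interaction. All-gene calls for the combination against crenolanib, 7803 as deposited, were 5112 with median-ratio scaling, 5126 with upper-quartile scaling and 4946 with mitochondrial genes left out. Fits of only the compared groups called 8672 genes for HPA-12 against DMSO (5652 over all groups) and 7147 for crenolanib against HPA-12 (4589).

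Some directions reversed, and the cause was not tested beyond the scaling itself. For the combination against DMSO, CDKN2D (-0.19 as deposited) was 0.42 with median-ratio, 0.41 with upper-quartile scaling and 0.79 with mitochondrial genes left out; CCND3 was 0.24 and CDKN1B 0.054 with mitochondrial genes left out; CCNE2 was -0.024 and RB1 -0.71 with total-sum scaling. Against crenolanib, with median-ratio, upper-quartile and mitochondrial-free scaling, CCNE2 was 0.47, 0.46 and 0.57 and CDC25A 0.38, 0.37 and 0.47, and with total-sum scaling CCND3 was -0.30, CDK4 -0.48, TFDP1 -0.050 and CDKN1A -0.24. Against HPA-12, CCND2 was 0.046, 0.037 and 0.33 under the same 3 scalings, RB1 was 0.22 with mitochondrial genes left out, CCNE1 was -0.0093 with a pseudocount of 0.1, and with total-sum scaling CCND3 was -0.59, CCNE1 -0.73, CCNE2 -0.23, CDK4 -0.35 and CDC25A -0.55. For crenolanib against HPA-12, CCND3 was 0.011, 0.0047 and 0.25 under the 3 scalings, CDKN1B 0.048 with mitochondrial genes left out and RB1 -0.031 with total-sum scaling; for crenolanib against DMSO, CCND2 was 0.13 with mitochondrial genes left out. For the interaction CCND2 was 0.19, 0.19 and 0.20 and CCNE2 0.34, 0.34 and 0.39 under the 3 scalings.

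On leaving out 1 library at a time, CDKN2D in the combination against DMSO ran from -0.49 to 0.16. Against crenolanib CCNE2 ran from -0.42 to 0.35, CDK4 from -0.092 to 0.46 and CDC25A from -0.33 to 0.11. Against HPA-12 CCNE1 ran from -0.44 to 0.36 and CDC25A from -0.0064 to 0.43. CCND3 in crenolanib against HPA-12 ran from -0.078 to 0.016 and CCNE2 in the interaction from -0.56 to 0.21. Combination library 1 or 2 gave the ends of these ranges except the upper ends for CDK4 and CCNE1 (library 3) and CCND3 (HPA-12 libraries).

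Of all-gene calls, the share that was higher moved with scaling. For the combination against DMSO it was 20.8% as deposited, 44.6% with median-ratio, 62.7% with mitochondrial genes left out and 7.66% with total-sum scaling; against crenolanib 12.5%, 42.7%, 48.7% and 3.79%; against HPA-12 20.1%, 45.2%, 60.8% and 6.87%; for the interaction 23.6%, 46.3%, 46.8% and 10.6%. For crenolanib it was 48.7%, 49.2%, 70.1% and 38.1% against DMSO and 47.5%, 52.1%, 79.2% and 25.8% against HPA-12. Depth limits the combination most: CDKN2D rests there on 26 to 65 estimated reads and CCNE1 on 22 to 99.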

Other observations

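Combination libraries scattered more than counting allows for most of the 10 genes. CCNE1 had a coefficient of variation of 76.5% over the 3 combination libraries, where counting error at the estimated depth gives 14.0%, CCNE2 had 68.9% against 13.0%, CDKN2D 48.8% against 14.9% and CDKN2C 45.4% against 7.34%. In the HPA-12 libraries the coefficients were 3.20% for CCNE1, 15.9% for CCNE2, 5.09% for CDKN2D and 6.41% for CDKN2C. Combination library 1 was the highest of its group for 7 of the 10 genes and library 2 the lowest for 5 (CCND3, CCNE2, CDKN1B, CDKN2D and CDC25A), yet library 2 was the highest for CCNE1 and CDKN2C. CDKN2A followed the same split, at 0.71 FPKM in combination library 2 against 4.80 and 5.65 FPKM in libraries 1 and 3. CDKN1C varied by 4.21% over the same libraries, where counting error gives 2.76%, and CDKN1A by 11.6%, where it gives 3.47%. Both coefficients were smaller than those of CDKN2C and CDKN2D, yet both still exceeded counting error. Mean chi-square per gene between replicates was 14.4 to 15.5 in the combination, 5.27 to 5.64 with crenolanib, 3.09 to 6.96 with HPA-12 and 2.96 to 5.18 in DMSO. The source of the scatter was not tested.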
